A study of Mus musculus with 8 samples.

Results

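The regions described here are stretches of open chromatin deep inside very long genes of the mouse brain. Open chromatin was mapped by ATAC-seq: a transposase, Tn5, enters where DNA is not packed in nucleosomes and tags the fragments for sequencing. The peaks of all 8 deposited lists were merged wherever they shared at least 1 base, which gave a union of 443327 regions. A region belongs to the set when its centre lies inside a RefSeq protein-coding gene of 500 kb or more on genome build mm10, over 5 kb from both ends of that gene. This choice used positions only and no peak strength. It gave 41799 regions, 9.43% of the union, in 225 of the 226 genes of that length. The intervals run from 502 kb (Edil3) to 2390 kb (Dmd). Just below the limit, Dnm3 (496 kb) held 171 interior regions and Lrrc7 (495 kb) held 258. Just above it, Edil3 held 150 and Dock1 (503 kb) held 84.

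The 8 libraries form 4 groups of 2, all from mice on the C57Bl/6J background. Fn14 KO mice, which lack the cytokine receptor Fn14 (gene Tnfrsf12a), and their Fn14 WT littermates were untreated and taken at postnatal day 27. Their libraries come from coronal brain sections through the hippocampus, with cortex and with the thalamic relay of retinal input, the dorsal lateral geniculate nucleus (dLGN). The chow groups were C57Bl/6J mice fed PLX5562 chow, spelled so in the labels and given to remove microglia, or control chow, from day 20 to day 32, and only their dLGN was dissected. Whether the knockout is constitutive, and how many animals went into each library, is not given in the sources used here, so p-values measure the spread between these libraries, which may be technical. Tissue, age, chow and dissection change together between the chow libraries and the Fn14 libraries and cannot be told apart. The sections also contain dLGN, in a share that is not given.

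Very long genes are a class of their own in brain. Most of their span is intron, many encode synaptic adhesion molecules, channels and scaffolds of neurons, and transcribing one takes RNA polymerase II many hours. Several lie at common fragile sites, which break under replication stress. Their introns hold enhancers, start sites of shorter transcripts of the same gene, and whole smaller genes nested inside.

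The sequences of a few start sites inside these genes are shown first, as examples of open regions with a known transcript start. Each is the 300-base RefSeq start window (build GRCm38.p6, the mm10 assembly), from 250 bases before to 50 bases after a transcript start, 5′ to 3′ on the strand of the transcript. Capitals mark CpG dinucleotides, which are dense at many promoters. The first pair are internal starts of Foxp1, a forkhead transcription factor, one stronger in the sections and one stronger in dLGN. Lingo2 (a leucine-rich repeat membrane protein) and Cacna1c (a calcium channel subunit) show a dLGN-stronger and a section-stronger start. Stronger means ranked higher in every library of one tissue than in any of the other, in the equal lists described below. The peak values themselves overlapped between the tissues at the section-stronger Foxp1 and Cacna1c windows. Nrxn3 gives an internal start of a neurexin with like ranks in both tissues. Cstf2t and Flrt3 are nested genes, inside Prkg1 and Macrod2, whose starts ranked high in every library. The 7 were chosen after their values were seen.
Foxp1, stronger in sections, minus strand, chr6:99028249-99028548: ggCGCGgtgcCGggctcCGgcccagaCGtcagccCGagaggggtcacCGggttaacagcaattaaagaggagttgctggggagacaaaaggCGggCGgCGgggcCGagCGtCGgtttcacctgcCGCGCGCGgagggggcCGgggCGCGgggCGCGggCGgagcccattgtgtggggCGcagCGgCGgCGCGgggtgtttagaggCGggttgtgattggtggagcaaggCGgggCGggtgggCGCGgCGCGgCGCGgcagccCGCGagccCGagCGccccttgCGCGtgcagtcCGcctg
Foxp1, stronger in dLGN, minus strand, chr6:99266466-99266765: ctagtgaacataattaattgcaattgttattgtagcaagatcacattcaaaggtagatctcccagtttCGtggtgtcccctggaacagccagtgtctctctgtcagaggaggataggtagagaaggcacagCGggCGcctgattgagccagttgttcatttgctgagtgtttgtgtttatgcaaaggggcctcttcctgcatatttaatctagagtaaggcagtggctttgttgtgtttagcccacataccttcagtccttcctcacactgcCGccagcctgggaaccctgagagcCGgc
Lingo2, stronger in dLGN, minus strand, chr4:35845155-35845454: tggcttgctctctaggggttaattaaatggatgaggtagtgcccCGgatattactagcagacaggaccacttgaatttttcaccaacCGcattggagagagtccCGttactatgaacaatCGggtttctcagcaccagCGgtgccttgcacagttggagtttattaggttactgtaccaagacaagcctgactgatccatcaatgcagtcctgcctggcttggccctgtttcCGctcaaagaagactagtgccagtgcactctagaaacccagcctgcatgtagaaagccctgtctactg
Cacna1c, stronger in sections, minus strand, chr6:119108446-119108745: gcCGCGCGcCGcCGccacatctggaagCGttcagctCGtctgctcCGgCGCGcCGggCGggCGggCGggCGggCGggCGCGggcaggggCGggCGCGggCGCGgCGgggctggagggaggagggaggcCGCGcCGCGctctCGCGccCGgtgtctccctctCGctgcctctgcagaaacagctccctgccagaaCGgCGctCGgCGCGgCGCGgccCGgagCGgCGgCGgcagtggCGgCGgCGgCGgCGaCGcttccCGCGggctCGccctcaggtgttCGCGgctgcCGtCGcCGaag
Nrxn3, both tissues, plus strand, chr12:89812233-89812532: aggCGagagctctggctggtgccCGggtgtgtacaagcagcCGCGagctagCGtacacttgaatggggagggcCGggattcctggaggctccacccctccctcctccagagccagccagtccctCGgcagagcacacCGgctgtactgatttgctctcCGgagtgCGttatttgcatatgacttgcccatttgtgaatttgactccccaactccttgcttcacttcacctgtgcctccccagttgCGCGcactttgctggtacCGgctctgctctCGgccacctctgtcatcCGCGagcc
Cstf2t, nested in Prkg1, plus strand, chr19:31082591-31082890: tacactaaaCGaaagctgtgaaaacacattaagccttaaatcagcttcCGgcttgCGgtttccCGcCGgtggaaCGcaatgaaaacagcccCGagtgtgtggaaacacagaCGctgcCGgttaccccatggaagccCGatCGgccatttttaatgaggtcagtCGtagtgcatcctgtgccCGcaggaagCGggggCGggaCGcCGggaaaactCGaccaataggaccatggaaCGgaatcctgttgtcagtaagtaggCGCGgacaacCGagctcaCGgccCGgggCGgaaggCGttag
Flrt3, nested in Macrod2, minus strand, chr2:140671427-140671726: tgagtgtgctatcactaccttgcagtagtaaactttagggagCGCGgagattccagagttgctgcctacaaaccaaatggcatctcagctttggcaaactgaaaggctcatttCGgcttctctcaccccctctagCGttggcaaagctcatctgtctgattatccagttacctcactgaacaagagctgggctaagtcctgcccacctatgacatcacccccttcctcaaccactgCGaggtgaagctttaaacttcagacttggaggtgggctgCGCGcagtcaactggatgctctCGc

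The deposited lists hold 248989 to 299822 peaks, and both Fn14 KO lists, 299822 and 299816, sit near the pipeline's limit of 300000. Read depth is not given with the lists. List length alone can therefore set how many regions a gene has, and the main measure here uses lists of equal length: the 50000 union regions with the highest −log10 p (the authors' column 8) in each library, called selected regions. Column 8 itself ran higher in dLGN, where the weakest selected region had 25.2 to 32.4 against 13.4 to 21.2 in the sections, so tissues and groups were compared by rank in these lists, and the values serve only to order and describe regions. The start region of Tnfrsf12a (chr17:23677365-23677642), which checks the labels, had no deposited peak in either Fn14 KO library, −log10 p of 13.6 and 8.02 in Fn14 WT, 10.0 and 19.4 with PLX chow, and 24.5 and 25.3 with control chow. Each value lies below the weakest selected region of its own library (15.4 and 13.4 in Fn14 WT), so this check rests on weak peaks. Marker genes were counted from 5 kb before to 5 kb after the gene. Of 8 thalamic ones, Prox1 (also on the cortical and hippocampal list) and Foxp2 had more selected regions in every dLGN library and Rora fewer. The thalamic sums overlapped, with 27 to 31 in the sections and 28 to 36 in dLGN. Of 8 cortical and hippocampal ones, Neurod2 had no selected region in any library. Their sums were 9 to 13 in the sections and 7 or 8 in dLGN. The astrocyte gene Aldh1l1 and the inhibitory neuron gene Gad1 had fewer in every dLGN library, and none of those 2 lists had more. The microglial markers Trem2, Tmem119 and Siglech had no selected region in any library, control chow included, and the 8 microglial genes together had 4 and 7 with PLX chow against 8 and 6 with control chow, so these lists give no check of microglial removal.

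Regions inside very long genes were mostly weak and slightly narrower than the union. They lay at 22.0 per 100 kb, with a median width of 295 bases against 311 for the union. A deposited peak in only 1 library was behind 40.1% of them (36.3% of the union), and a peak in all 8 behind 10.6% (16.1%). Regions inside genes of 100 to under 500 kb lay between, with a median of 305 bases, 38.0% in 1 library and 13.8% in all 8. In any library 6362 were selected, 15.2% against 20.7% of the union, and 832 were selected in all 8, 1.99% against 5.29%. Genes varied widely. Ptprd, a receptor tyrosine phosphatase at presynaptic terminals, held the most regions, 559, followed by the scaffold gene Magi2 with 429, the adhesion gene Tenm2 with 411 and the splicing factor gene Rbfox1 with 397. Lsamp (388), Nrxn3 (387), Macrod2 (386), Cadm2 (381) and Ctnna2 (376) were also among the first 10.

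Per length, the order was different. Syt1, the calcium sensor of vesicle release, had 49.3 regions per 100 kb, Nbea 47.3, Ank2 (ankyrin-B) 45.3, Negr1 44.7 and Celf2 43.0. At the low end, Skint5, of a skin immune family, had none, and Pcdh11x (2.42 per 100 kb), Dach2 (2.60), Il1rapl2 (3.05) and Il1rapl1 (3.56) are all on the X chromosome. The 11 very long X genes had a median of 4.77 per 100 kb and a highest value of 9.36, against a median of 23.1 for the 215 autosomal ones. The sex of the mice is not given, and the pipeline's multimapping setting was 0; the part of neither was tested. Density fell slightly with gene length, with a Spearman rank correlation of -0.20 across the 226 genes, which are not independent replicates. Along the 179 genes whose strand the RefSeq start table gives, the regions were spread almost evenly. Cut into 10 equal parts from the 5′ end, each part held 9.29% to 10.8% of the regions. Of the selected regions, the first part held 9.66% ± 0.374 in dLGN and 8.55% ± 0.336 in the sections (SD, n = 4 each), and the last held 12.3% ± 0.408 and 11.9% ± 0.414.

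Among the 50000 strongest regions of a library, those inside very long genes were more frequent in dLGN than in the sections, but the order turned round once weaker regions were counted. The number selected was 3116 and 2938 with PLX chow, 2932 and 2957 with control chow, 2671 and 2893 in Fn14 KO, and 2825 and 2824 in Fn14 WT. Every dLGN library was above every section library. The share of selected regions was 5.97% ± 0.175 in dLGN and 5.61% ± 0.188 in the sections (SD, n = 4 each), 0.365 percentage points apart (exact two-sided permutation p = 0.0286, the smallest that 4 against 4 allows; 0.0571 after Benjamini-Hochberg adjustment over 4 tests). The gap was wider among the 10000 strongest, with 2.24% to 2.97% in dLGN and 1.13% to 1.60% in the sections. Among the 5000 strongest the shares were 0.98% to 1.84% and 0.36% to 0.46%. With 100000 regions dLGN had 7.01% ± 0.124 and the sections 7.19% ± 0.113, and with all regions that had a peak, in lists of unequal length, 8.24% ± 0.0666 and 8.62% ± 0.0470, with every section library higher. Among the 1000 strongest there was no excess, with 0.25% in dLGN and 0.275% in the sections. The dLGN excess therefore holds from 5000 to 50000 regions, not at the very top and not for all regions. PLX chow 1 stood above the other 3 dLGN libraries, and without it the difference at 50000 was 0.278 (exact permutation p = 0.0571, n = 3 against 4).

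**Figure D1:**
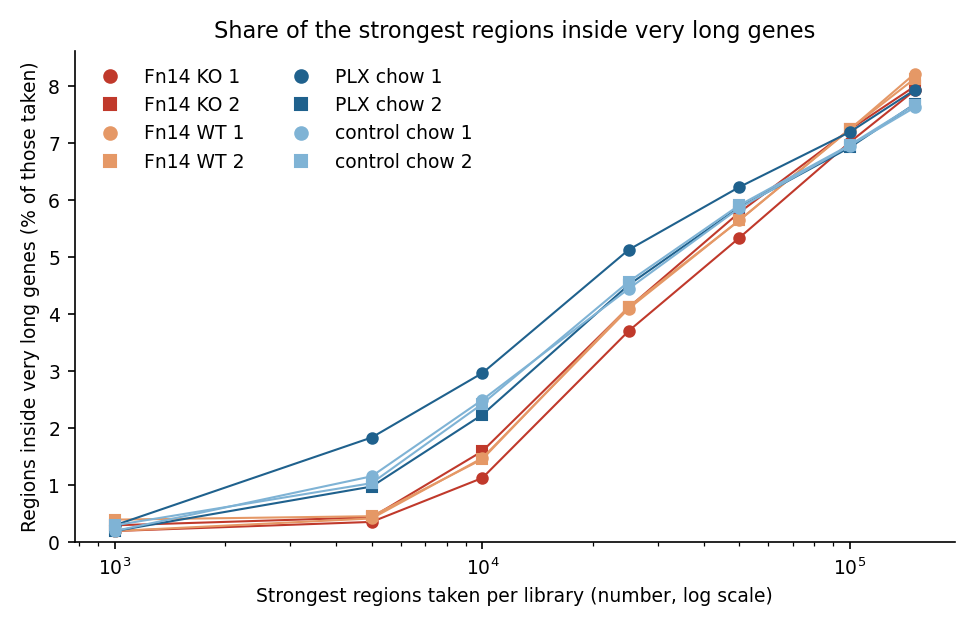
Each line is 1 library: the percentage of its strongest regions that lie inside very long genes, against how many of its strongest regions are taken (log scale). The dLGN libraries (blue) lie above the section libraries (red and orange) from 5000 to 50000 regions, and the order turns by 150000, where dLGN averages 7.73% and the sections 8.07%.

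The 2 contrasts within a tissue were small against their spread. Fn14 KO had 5.34% and 5.79% and Fn14 WT 5.65% and 5.65%, a difference of -0.085 percentage points (exact permutation p = 1). PLX chow had 6.23% and 5.88% and control chow 5.86% and 5.91%, a difference of 0.165 (exact permutation p = 0.667). Groups of 2 cannot give less than 0.333. Regions inside genes of 100 to under 500 kb, chosen by the same rule, were counted for comparison. The ratio of selected regions in very long genes to those in these other long genes was 0.335 ± 0.00626 in dLGN and 0.316 ± 0.0132 in the sections (exact permutation p = 0.0286, adjusted 0.0571 over the same 4 tests). The ratio too was largest in PLX chow 1, 0.344, and smallest in Fn14 KO 1, 0.299. At 100000 regions the ratio differed by 0.00296, dLGN minus sections (unadjusted exact permutation p = 0.686).

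Which regions were selected differed between the tissues more than between groups of the same tissue. The Jaccard index, shared regions over all regions selected in either library, averaged 0.716 for the 2 dLGN replicate pairs and 0.586 for the 2 section pairs. Between libraries of different tissues it was 0.292 on average (0.229 to 0.352 over 16 pairs), against 0.447 for all selected regions of the genome in the same pairs. Members were below all regions within a tissue too, with 0.716 against 0.768 for the dLGN replicate pairs and 0.586 against 0.681 for the section pairs. Fn14 KO against WT averaged 0.552 (0.654 for all regions) and PLX against control chow 0.716 (0.772).

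Gene by gene, dLGN and sections differed in both directions. A gene was called when every library of one tissue had more selected regions in it than every library of the other. That held for 50 of 225 genes in the dLGN direction and 30 in the section direction (22.2% and 13.3%), against a background of 5.97% and 5.95% of all protein-coding genes. Genes with more regions separate more easily, and in genes of 100 to under 500 kb the shares were 13.5% and 11.2%. Among genes with 8 to under 12 selected regions on average, 21 of 51 very long genes and 54 of 201 of those shorter ones were called in either direction, 41.2% and 26.9%. The shares were 33.8% and 25.8% at 12 to under 18 regions, and 38% and 25% (2 of 8 shorter genes) above that.

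Genes with large dLGN excesses are given first, without a test of what they share. Macrod2, a mono-ADP-ribosyl hydrolase gene on chromosome 2 (140395303 to 142392966), had 23 and 27 selected regions in Fn14 KO, 30 and 28 in WT, 47 and 39 with PLX chow and 42 and 43 with control chow, which is 42.8 ± 3.30 in dLGN against 27 ± 2.94 in the sections. Tenm3 (chromosome 8, 48225665 to 49522824) encodes a teneurin that guides the wiring of retinal and hippocampal projections. It had 18, 15, 21 and 21 in the same order of section libraries and 34, 34, 34 and 33 in the dLGN ones, the narrowest spread of the group. Its relative Tenm2 had 24 to 29 in the sections and 36 to 42 in dLGN.

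Foxp1 (chromosome 6, 98925342 to 99522746) had 7, 9, 11 and 8 in the sections and 21, 20, 23 and 20 in dLGN, a log2 ratio of 1.22 (pseudocount 0.5). Rbms3, an RNA-binding protein gene, had the largest log2 ratio of the 10, 1.55, with 4 to 8 regions in the sections and 15 to 22 in dLGN. Cntnap2, a neurexin-superfamily gene that organizes potassium channels along axons, had 11 to 19 and 23 to 32. The RNA-binding protein gene Celf2 had 10 to 15 and 21 to 26, the glycosyltransferase-family gene Galntl6 11 to 19 and 23 to 26, and the oxidoreductase gene Wwox 11 to 13 and 20 to 22. Naaladl2 had 17 to 20 in dLGN, 10, 12 and 12 in 3 section libraries and only 1 in Fn14 KO 1. Over all deposited peaks instead of equal lists, 48 genes were higher in every dLGN library and 46 in every section library, against 5.22% and 7.13% of all protein-coding genes, and 11.2% and 16.4% of genes of 100 to under 500 kb. On that count Foxp1, Tenm2 and Celf2 turned round, by -5.0, -4.5 and -25.8 regions (dLGN minus sections), so their dLGN excess does not hold for all deposited peaks. That count adds weaker regions and also uses lists of unequal length, and which of these turned the genes was not tested.

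**Figure D2:**
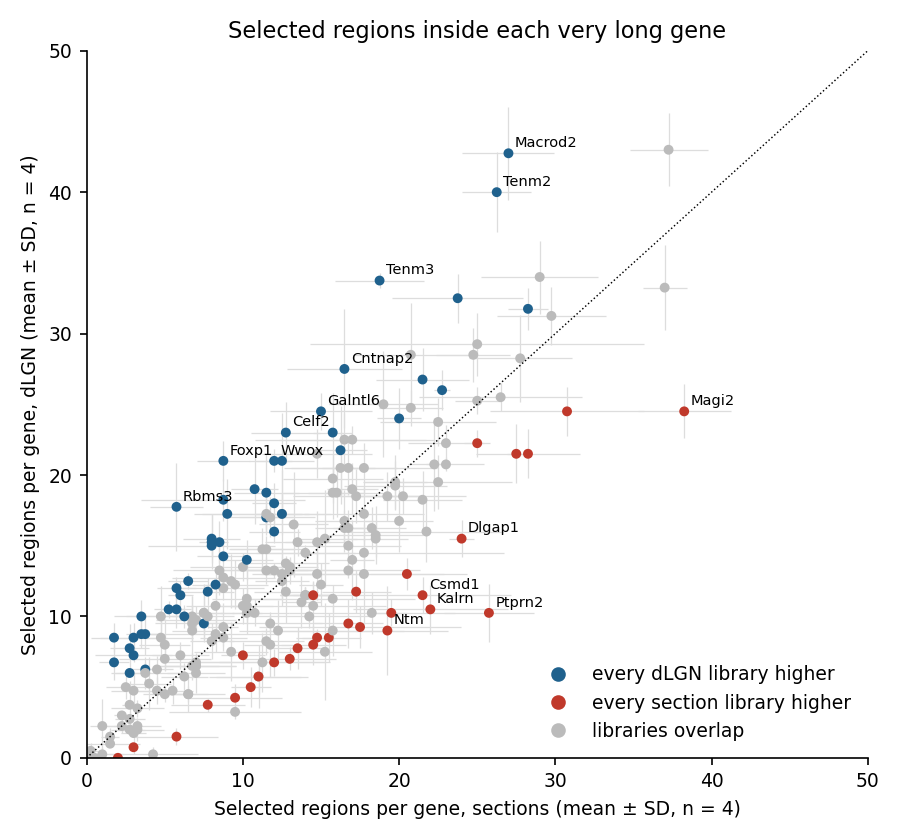
Each point is 1 very long gene, placed by its mean number of selected regions in the 4 section libraries and in the 4 dLGN libraries, with SD bars. The 50 blue genes are higher in every dLGN library and the 30 red ones in every section library; Macrod2, Tenm2 and Tenm3 lie farthest above the dotted line of equality, Ptprn2 and Magi2 far below it.

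Genes with section excesses are given next. Ptprn2 (chromosome 12, 116485695 to 117278167), a phosphatase-like protein of dense-core vesicles, had 28 and 28 in Fn14 KO, 25 and 22 in WT, 8 and 13 with PLX chow and 10 and 10 with control chow. The means were 25.8 ± 2.87 and 10.3 ± 2.06, a log2 ratio of -1.29. Magi2, a synaptic scaffold gene, had 35 to 42 in the sections and 23 to 27 in dLGN. Kalrn, a guanine nucleotide exchange factor of dendritic spines, had 28, 24, 17 and 19 against 8, 11, 11 and 12. Syne1 had 18 to 20 against 9 to 11, and the postsynaptic density scaffold Dlgap1 23 to 25 against 14 to 17, with SDs of 0.816 to 1.29 for both genes in either tissue.

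Further section-higher genes were the adhesion gene Ntm (14 to 23 against 5 to 12), the complement-domain gene Csmd1 (15 to 28 against 10 to 13) and the potassium channel partner Kcnip4 (15 to 20 against 8 to 11). Nrxn3, a neurexin gene, had 36 to 39 in the sections and 30 to 37 in dLGN, which overlap.

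**Figure D3:**
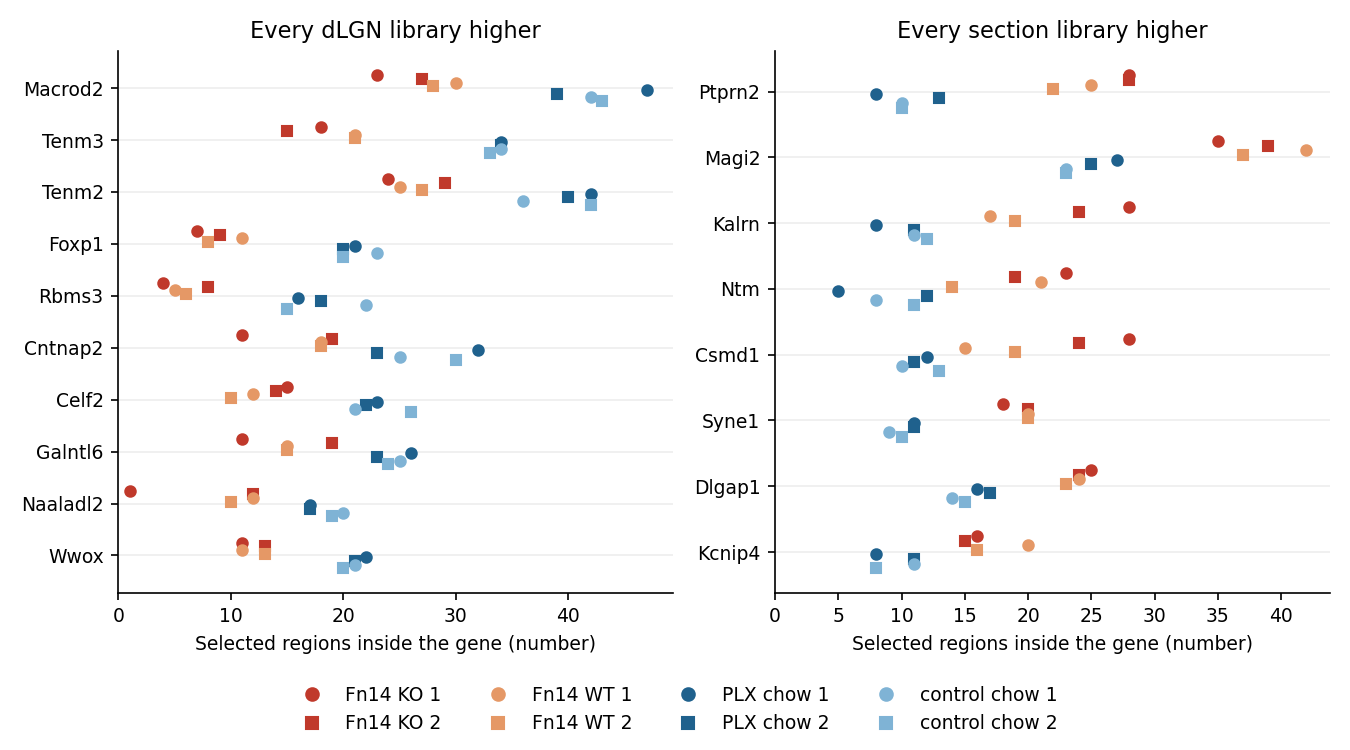
Selected regions inside each of the 10 genes with the largest dLGN excess (left) and 8 of the 10 with the largest section excess (right), 1 point per library, coloured by group. In all 18 genes the 4 dLGN points and the 4 section points do not overlap; Fn14 KO 1 lies far to the left of the other section libraries in Naaladl2, with 1 region.

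The genes were also described by role, in lists chosen with earlier results of these data known. Beside all 225 genes (50 and 30 called, median log2 ratio of dLGN over sections 0.07), the 17 very long genes whose human counterparts lie at common fragile sites had 9 called for dLGN (Ctnna3, Fhit, Lrp1b, Macrod2, Naaladl2, Dpyd, Cntnap2, Wwox and Dmd) and 1 for sections, with a median log2 ratio of 0.44. Genes of 1 Mb or more had 19 called for dLGN and 9 for sections (32.2% and 15.3%), and the part of gene length in this list was not tested. Ion channels and their partners went the other way. Of 15 genes, 7 were called for sections (Kcnq5, Ryr2, Fgf14, Fgf12, Ryr3, Kcnip4 and Cacna1c) and 2 for dLGN (Trpm3 and Kcnd2), with a median of -0.44. Fgf12, a regulator of sodium channels, had 12 to 17 regions in the sections and 7 to 10 in dLGN.

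Adhesion and guidance genes outside the neurexin and cadherin families had 7 called for dLGN and 4 for sections of 31 (median 0.04), and receptors of glutamate and GABA with their scaffolds had 3 and 3 of 19 (0.05). Transcription factors and regulators of chromatin or RNA had 3 and 2 of 20 (0.06), signalling enzymes 3 and 2 of 20 (0.06), neurexin and contactin genes 2 and 1 of 9 (0.39), cadherins and catenins 2 and 1 of 10 (0.00), receptor phosphatases and neuregulin signalling 3 and 2 of 10 (0.21), and glia-associated genes 2 and 1 of 11 (0.20). In these last lists, Pcdh15 had 18 to 24 in the sections and 25 to 30 in dLGN, the receptor kinase gene Alk 6 to 11 and 14 to 20, the proteoglycan gene Gpc5 10 to 15 and 19 to 26, and Nkain2 9 to 16 and 6 to 8.

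Of further genes known for their part in the brain, Erbb4, the neuregulin receptor of interneurons, had 0, 3, 3 and 6 in the sections and 7 or 8 in every dLGN library. Dmd, the dystrophin gene, had 5 to 7 against 9 to 11, and Ptprd 22 or 23 against 25 to 28, a direction that turned to -3.75 regions at 100000 and -45.3 over all deposited peaks. Rora, a nuclear receptor gene, had 9 to 15 in the sections and 3 to 8 in dLGN. Foxp2 had 2, 4, 6 and 7 against 12, 10, 7 and 11, which meet at 7. Zbtb20 (15 to 19 against 15 to 20), Rbfox1 (10 to 25 against 10 to 17) and Dlg2 (12 to 36 against 27 to 32) overlapped.

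Single regions also differed in both directions. A region was called for a tissue when it was selected in all 4 of its libraries and had no deposited peak in any of the other 4. Of 6362 regions, 65 were called for dLGN and 163 for sections (1.02% and 2.56%), near the background of 1.09% and 1.94% over all union regions selected in any library. In genes of 100 to under 500 kb the shares were 0.728% and 1.91%. The order depended on the rule for absence: with a peak allowed in the other tissue if not selected there, 746 regions were called for dLGN and 549 for sections (11.7% and 8.63%). The shares of all union regions under this looser rule were not counted, so whether their order turns too is not known. By rank, 1244 stood higher in every dLGN list and 760 in every section list, 19.6% and 11.9% against 16.7% and 14.4% of all regions. In genes of 100 to under 500 kb the shares by rank were 17.5% and 12.3%.

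None of these called regions overlapped a start window, and 4 of the 65 and 8 of the 163 had their centre inside a further RefSeq gene. Ctnna3, an alpha-catenin gene of cell junctions, held most of both kinds, 4 for dLGN and 6 for sections. Its first dLGN region by the lowest of the 4 values (chr10:64820173-64820605) had −log10 p of 118 and 96.4 with PLX chow and 174 and 110 with control chow and no peak in any section library. A second (chr10:64473094-64473776) had 86.1, 101, 111 and 103. Other strong dLGN regions lay in Nfia (chr4:97632470-97632962), a gene of glial and neuronal differentiation and in Esrrg (chr1:188085036-188085684), a nuclear receptor gene. Ordered by the lowest of the 4 values, the first section region lay in the phosphodiesterase gene Pde4b (chr4:102148374-102149413) with 100, 54.3, 80.6 and 53.9 and no peak in dLGN. Ctnna2 (chr6:77862574-77863262), Lrrc4c (chr2:96717013-96717937), Cntnap2 (chr6:46802500-46803135) and A830018L16Rik (chr1:11573501-11574106) followed. Cntnap2 thus held 4 section regions while its count of selected regions was higher in dLGN.

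Of the 5 regions with the highest median −log10 p over the 8 libraries, to which dLGN lists give higher values, 3 sat on starts of nested genes. The first lay in Prkg1, a cGMP-dependent kinase gene, on the start of Cstf2t, a gene of mRNA 3′-end processing (chr19:31082569-31083371). It ranked 190 to 496 of the 50000 in every library. The second lay in Arhgap26 (chr18:38992308-38994339) on no start window. The third lay in Astn2 on the start of the ubiquitin ligase gene Trim32 (chr4:65604422-65605879), with ranks of 646 to 1686. The fourth lay in Macrod2 on the start of Flrt3, an adhesion gene (chr2:140671047-140671772), with 1073 to 1560 in dLGN and 1983 to 3062 in the sections, and the fifth in Nfia inside the lncRNA gene Gm38709 (chr4:97771818-97772752).

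Start windows inside these genes ranged from selected in every library to no peak at all. Of the 226 genes, 179 matched the RefSeq start table, which gives 128 windows of the very long genes' own internal transcript starts, in 78 genes. Of these, 56 (43.8%) overlapped a region selected in all 8 libraries, 30 in 1 to 7, 20 had a peak that was selected in none, and 22 had no peak. Nested protein-coding genes had 34 windows, 8 of them selected in all 8 libraries, and nested lncRNAs 267 windows, 17 in all 8; 21 and 178 of these had no peak. Counted by region, 50 of the 100 on an own start were selected in all 8 libraries, 7 of 12 on a nested protein-coding start, 8 of 76 on a nested lncRNA start, and 767 of the other 41611 (1.84%). These counts cover only places that have a peak, and the regions on own starts were wider, with a median of 1130 bases against 294 for those on no window. Starts therefore made up a small part, and 92.2% of the 832 regions selected everywhere lay on no start window of the table. The windows come from an annotation that is not complete.

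CpG content followed the same order. Own starts selected in all 8 libraries had a median of 12 CpG in 300 bases, those selected in 1 to 7 had 7, those with a peak only 5 and those with none 2. Over all 32851 start windows in the table the median was 7. The CpG-dense Cacna1c window above has 57, and the Foxp1 window stronger in the sections 44. Low CpG did not go with absence in every case: the Foxp1 window stronger in dLGN has 5, and an internal start of Cntnap2 at 97% of the gene (chr6:47244146-47244445) has 3 and ranked between 6833 and 14434 in every library.

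**Figure D4:**
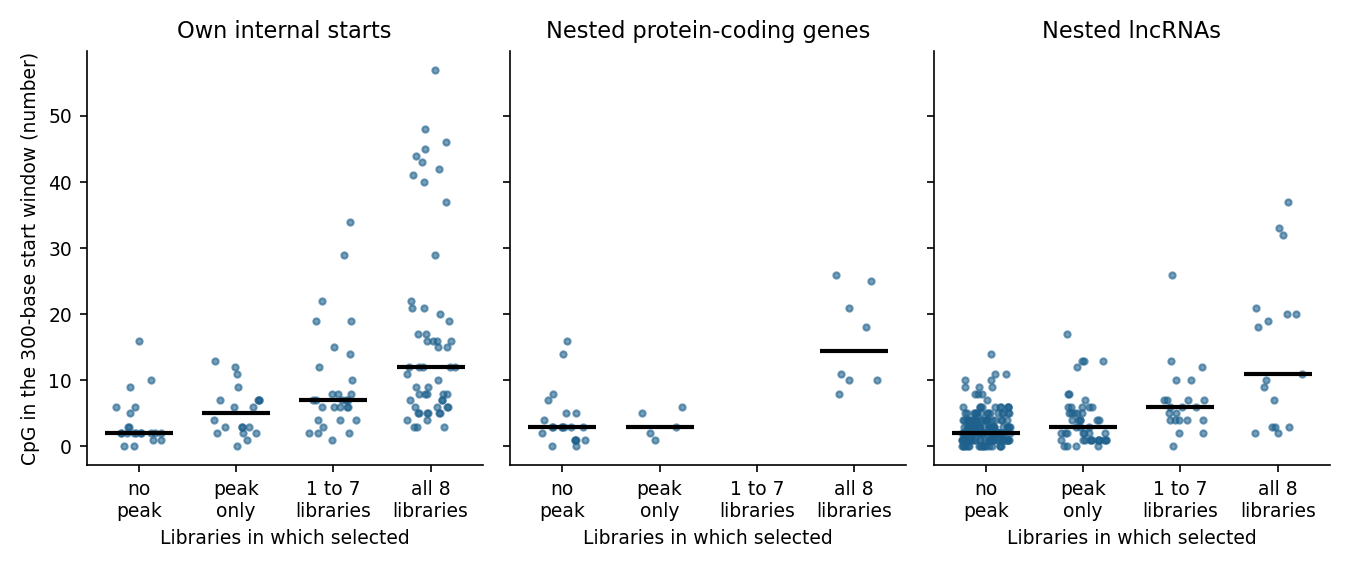
CpG dinucleotides in each 300-base start window inside very long genes, 1 point per window, by how many libraries had a selected region on it; bars are medians. Medians rise from 2 (no peak) to 12 (all 8 libraries) for own internal starts and from 2 to 11 for nested lncRNAs.

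Of the own internal starts, 12 of the 86 selected in any library ranked higher in every dLGN library and 12 in every section library, no more than the 16.7% and 14.4% of all regions. The Lingo2 start ranked 8037 to 12581 in dLGN and 33313 to 46762 in the sections. The Foxp1 start at 43% of the gene ranked 16509 to 25618 in dLGN and 32898 to 45431 in the sections, while the one at 83% ranked 25033 to 37256 in dLGN and 14908 to 18157 in the sections, so the 2 starts of one gene went opposite ways. Esrrg had 3 windows, on 2 regions, all higher in dLGN. Robo1, a receptor of axon guidance, ranked 5425 to 7087 in dLGN and 7828 to 9154 in the sections. On the section side were Elmo1, Anks1b, Dab1, Dpp6 and Cacna1c, the last with 14114 to 26487 in the sections and 33831 to 44096 in dLGN. The Nrxn3 start at 68% of the gene ranked 4547 to 6543 in dLGN and 4906 to 6683 in the sections, which overlap.

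Between Fn14 KO and WT sections, no overlap of the counts held for 36 genes in the KO direction and 48 in the WT direction of 225 (16% and 21.3%), against 5.75% and 4.83% of all protein-coding genes and 10.9% and 11.1% of genes of 100 to under 500 kb. Genes were matched by mean count over all 8 libraries, dLGN included. The shares called in either direction were 35.3% of very long and 28.9% of the shorter genes at 8 to under 12 regions. They were 41.2% and 25.8% at 12 to under 18, and 30% and 25% (2 of 8 shorter genes) above that. With 2 libraries against 2 the smallest exact permutation p for 1 gene is 0.333, so that test cannot pass for any single gene. Labels placed at random separate untied counts at that rate, and 37.3% of the genes separated here in either direction. Leaving out 1 library makes an overlap less likely. It moved the WT-direction share to as much as 52.0% and the KO-direction share to as much as 31.6%. Without Fn14 KO replicate 1 the order turned, with 71 genes higher in KO and 60 in WT. The shares of all protein-coding genes with 1 library left out were not counted.

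Dlg2, which encodes a postsynaptic scaffold, had the largest KO excess, with 36 and 31 regions in KO and 21 and 12 in WT. The dLGN libraries had 27 to 32. Asic2, an acid-sensing channel gene, had 29 and 21 against 11 and 10, Rbfox1 25 and 21 against 15 and 10, and Csmd1 28 and 24 against 15 and 19. In the WT direction, Ank2 had 24 and 21 in KO and 33 and 28 in WT, and Dpyd, of pyrimidine breakdown, 4 and 5 against 12 and 11. Adamtsl1 had 13 and 16 against 24 and 18, and Nfia 20 and 19 against 27 and 24. At 25000 regions, Adamtsl1 and Ank2 turned to 1.0 region more in KO. Of the glia-associated list, 5 of 11 genes were called for WT (Elmo1, Gpc5, Zbtb20, Trpm3 and Lhfpl3) and none for KO, with a median log2 ratio of -0.20 beside -0.09 for all 225. Ion channels and partners had 5 called for KO and 2 for WT of 15 (median 0.13), and glutamate and GABA receptors with scaffolds 4 and 3 of 19 (0.17). In the 7 other lists 0 to 5 genes were called for KO and 2 to 5 for WT, with medians from -0.22 to 0.00.

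Counted over all deposited peaks, which follow the longer KO lists, 97 genes were higher in both KO libraries and 32 in both WT ones, against 21.1% and 3.35% of all genes, and 42.1% and 6.24% of genes of 100 to under 500 kb. Rbfox1 then had 265 and 203 regions in KO and 97 and 81 in WT, Dlg2 217 and 172 against 104 and 103, and Asic2 147 and 115 against 64 and 58. These 3 genes had more in KO on both measures, while Ank2 and Nfia, WT-higher in equal lists, had more regions in KO here by 10.0 and 4.0 on average.

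Several genes of this contrast also separated the tissues, and the section libraries enter both comparisons. Csmd1, Kalrn and Ptprn2 were higher in KO than WT and higher in sections than dLGN. Macrod2, Tenm3, Dpyd, Dmd, Gpc5 and Alk were lower in KO than WT and lower in sections than dLGN. Celf2 was higher in KO and lower in sections, and Ryr3 lower in KO and higher in sections. These genes are examples and not a full tally. The summed counts of the 8 thalamic markers were 31 and 28 in KO and 27 and 29 in WT, and those of the 8 cortical and hippocampal ones 11 and 13 against 9 and 13. The part of the share of dLGN, cortex and hippocampus in each section was not tested.

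Single regions gave almost no call between genotypes: 0 for KO and 1 for WT of 4406, against a background of 0.0185% and 0.00568%. The 1 region lay in Arhgap6 (chrX:168935530-168935763). It had −log10 p of 22.7 and 14.2 in WT, 10.7 to 18.5 in the 4 dLGN libraries and no peak in either KO library. By rank, 584 regions stood higher in both KO lists and 698 in both WT lists, 13.3% and 15.8% against 15.9% and 16.6% of all regions.

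In some genes the counts of selected regions did not overlap between PLX and control chow either. As for genotype, the smallest exact permutation p for 1 gene is 0.333 with 2 libraries against 2. Labels placed at random separate untied counts at that rate, and 19.7% of the genes separated here in either direction. Of 223 genes, 30 were higher in both PLX libraries and 14 in both control libraries (13.5% and 6.28%), against 2.47% and 2.55% of all protein-coding genes and 6.49% and 5.79% of genes of 100 to under 500 kb. Matched by mean count over all 8 libraries, sections included, the order was mixed. In either direction, 9.80% of very long and 19.4% of the shorter genes were called at 8 to under 12 regions. The shares were 23.5% and 17.7% at 12 to under 18, and 26% and 12.5% (1 of 8 shorter genes) above that. With 1 chow library left out, which makes an overlap less likely, the shares ran from 19.8% to 40.8% for PLX chow and from 14.8% to 22.1% for control chow, and without PLX chow replicate 1 their order turned, with 44 genes higher in PLX and 49 in control chow. Shares of all protein-coding genes with 1 chow library left out were not counted. The differences in single genes were small. The contactin gene Cntn4 had 29 and 26 with PLX chow and 20 and 25 with control chow, the transcription factor gene Sox5 20 and 16 against 14 and 12, Astn2 31 and 30 against 24 and 28, the phosphodiesterase gene Pde4d 44 and 46 against 42 and 40, and Alk 18 and 20 against 17 and 14. In the control direction, Fhit had 31 and 31 with PLX chow and 34 and 34 with control chow, Immp2l 11 and 12 against 15 and 14, Iqschfp 20 and 20 against 23 and 23, Lpp 10 and 12 against 14 and 13, and Naaladl2 17 and 17 against 20 and 19. Iqschfp overlaps Schip1, and their 199 shared regions count for both. In 9 of the 10 genes, all but Pde4d, the direction turned at another list length or over all deposited peaks.

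Over deposited peaks, where the control lists are longer, 6 genes were higher with PLX chow and 72 with control chow, against 3.18% and 10.5% of all genes, and 4.86% and 23.2% of genes of 100 to under 500 kb. No region was called for either chow of 3959 tested, against a background of 0.0016% and 0%. By rank, 541 stood higher in both PLX lists and 398 in both control lists, 13.7% and 10.1% against 12% and 13.6% of all regions. In genes of 100 to under 500 kb the shares by rank were 13.3% and 11.3%, the same order as in very long genes.

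**Figure D5:**
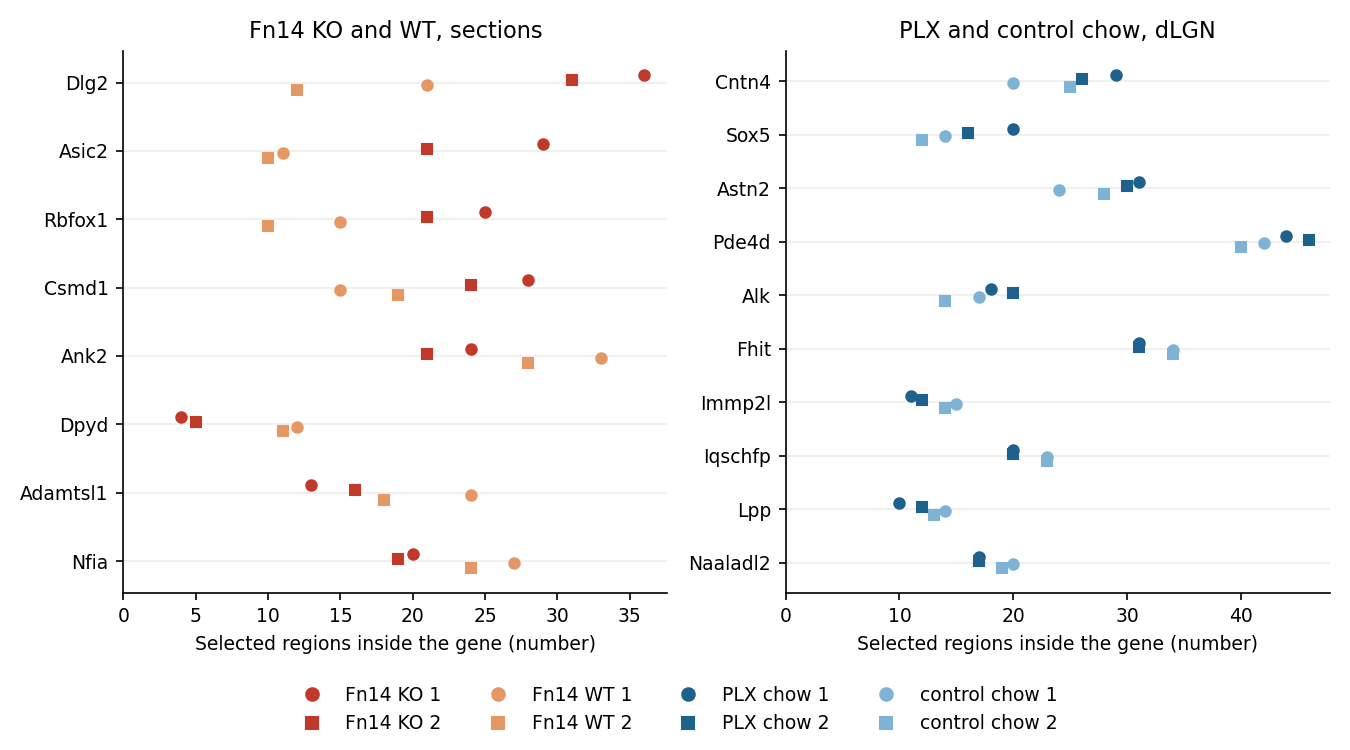
Selected regions per library in 4 of the 5 genes with the largest difference in each direction for Fn14 KO against WT in sections (left), and in the 5 in each direction for PLX against control chow in dLGN (right). The 2 groups of each gene do not overlap; Dlg2 spans 12 to 36 on the left, while gaps on the right are 1 to 3 regions.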

How the data were processed

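Each of the 8 libraries came with 1 list of peaks. Per the deposited pipeline instructions, the authors used the ENCODE ATAC-seq pipeline on build mm10 with a p threshold of 0.01, multimapping 0 and at most 300000 peaks a list. The sources used here do not give the aligner, the peak caller or the read depth; deepTools 3.5.0 is named in the submitters' processing notes without a step. Per the file headers and values, the deposited columns are a score, a fold ratio over background, and −log10 of p and q. The −log10 p values ranked regions, the deposited −log10 q values served 1 alternative, and the score was not used.

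Peaks were merged by an overlap of 1 base, and genes were taken from the RefSeq table of GRCm38.p6 (21883 protein-coding genes). A region takes its highest −log10 p per library, and the 50000 highest are selected. Groups were compared by exact two-sided permutation over libraries and by libraries that do not overlap; log2 ratios have a pseudocount of 0.5. Genes were named by rule: most members or densest and sparsest, largest non-overlapping differences, strongest regions, and 14 further symbols; a few of these are not reported here. Regions, lists, markers and genes were chosen with earlier results of these data known. Replicate numbers are not said to pair libraries: deviations of same-numbered Fn14 libraries correlated at 0.13 across all genes and 0.24 across the very long ones, and of chow libraries at -0.02 and -0.06, with 2 numbers each. Python 3.11.15, numpy 2.4.6, pandas 2.3.3, scipy 1.17.1 and matplotlib 3.10.9 were used, and the scripts were tested on simulated peaks. Alternatives were other list lengths (25000 and 100000, and 1000, 5000, 10000 and 150000 added after seeing the data), all deposited peaks, a q limit of 0.05, gene lengths of 1 Mb and 300 kb, a margin of 20 kb, regions in 1 gene only, a looser absence, a replicate block and each library left out. Comparing ranks in place of −log10 p was also chosen after seeing the data. Exon and intron positions were not used here.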

Additional observations from a re-analysis of the deposited data

Results flagged for a closer look

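Within the 4 libraries of a tissue, a library far from the other 3 was looked for in 140 sets of 4 values, and 18 values were set apart. How often chance sets apart such small and often tied counts was not tested. PLX chow 1 stood above the other dLGN libraries in the share of selected regions inside very long genes (6.23%) and in the ratio to other long genes (0.344). It was also apart in Gpc5 (26 selected regions), Il1rapl1 (3) and Pde4b (14), and PLX chow 2 in Ctnna3 (34). Control chow 1 was apart in Ank2 (27) and Erbb4 (8), and control chow 2 in Arhgap6 (2), Asic2 (16), Esrrg (13) and Tenm3 (33). Among the section libraries, Fn14 KO 1 was apart in A830018L16Rik (4), Cntnap2 (11), Rora (15) and Syne1 (18), and Fn14 WT 2 in Dach2 (1) and Ptprd (22). Where 3 libraries had equal counts, as in Tenm3 and Erbb4, a step of 1 region is enough.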

How the results depend on the processing

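The 2 differences between tissues in selected regions kept their direction with a q limit of 0.05, with genes of 1 Mb or 300 kb (the share only), with a 20 kb margin, in regions inside 1 gene only, and without any 1 library (0.277 to 0.425 percentage points for the share, 0.0131 to 0.0236 for the ratio; without a dLGN library the exact permutation p was 0.0571, n = 3 against 4). List length turned the share: dLGN minus sections was -0.025 at 1000 regions, -0.176 at 100000, -0.338 at 150000 and -0.381 over all deposited peaks. The ratio difference was smaller at 100000 (0.00296, unadjusted exact permutation p = 0.686) and over all peaks (0.0121, unadjusted exact permutation p = 0.0857). The Fn14 KO minus WT share was 0.016 with genes of 1 Mb and ran from -0.307 to 0.137 with 1 library left out, and the chow share ran from -0.013 to 0.343.

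Shares of genes called moved over 1.5 times as follows. Sections rose from 13.3% to 20.9% at 100000 and 20.4% over all peaks. Fn14 KO fell to 10.1% at 25000 and rose to 43.1% over all peaks, control chow went to 1.88% at 25000 and 32% over all peaks, and PLX chow to 2.67% over all peaks. With a replicate block, which asks only for the same sign within each number, WT rose to 32.9%, and the share differences stayed at -0.085 and 0.165. With 1 library left out the ranges were 23.6% to 27.1% (dLGN), 13.8% to 18.2% (sections), 16% to 31.6% (KO), 21.3% to 52.0% (WT), 13.5% to 40.8% (PLX) and 6.28% to 22.1% (control chow); fewer libraries separate more easily.

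Shares of regions called followed the list length and the rule for absence. The shares of all union regions were not counted under these alternatives. At 25000 they were 0.318% (dLGN), 0.914% (sections) and 0% (WT). At 100000 they were 2.74%, 4.50%, 0.642% (KO), 0.286% (WT), 0.0521% (PLX) and 0.0834% (control chow). Over all peaks they were 4.15%, 4.77%, 4.84%, 1.74%, 1.69% and 2.91% in the same order, and with the looser absence 11.7%, 8.63%, 4.43%, 4.24%, 2.55% and 1.62%. KO was 0.0227% with the q limit, and WT 0% with genes of 1 Mb and 0.0121% with 300 kb. With 1 library left out the ranges were 1.08% to 1.65% (dLGN), 2.75% to 3.48% (sections), 0% to 0.222% (KO), 0.0227% to 0.172% (WT) and 0% for both chows.

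Differences of single genes turned as follows. At 25000 regions, dLGN minus sections was -1.5 for Ctnna3 and 0.25 for Nkain2, KO minus WT was 1.0 for Adamtsl1 and 1.0 for Ank2, and PLX minus control was 0.5 for Lpp and 1.5 for Naaladl2. At 100000, Ptprd had -3.75 between tissues, and PLX minus control was -2.0 for Alk, 2.5 for Fhit, 3.0 for Immp2l and 0.5 for Iqschfp. Over all peaks, dLGN minus sections was -25.8 for Celf2, -5.0 for Foxp1, -45.3 for Ptprd and -4.5 for Tenm2, KO minus WT 10.0 for Ank2 and 4.0 for Nfia, and PLX minus control -2.5 for Alk, -4.5 for Astn2, -9.0 for Cntn4, 1.5 for Iqschfp and -13.0 for Sox5. Of 858 single-gene values under alternatives, 709 stayed within 1 SD of the main value. The lists carry no read depth, so how far depth sets their lengths and ranks was not tested.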
